A study of Rattus norvegicus with 4 samples.

Results

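Interleukin 10 (Il10), the chains of its receptor (Il10ra and Il10rb), the transcription factor they signal through (Stat3) and 4 genes known to respond to it (Socs3, Bcl3, Pim1 and Il4r) were followed across the cell types of rat liver. These 8 genes were taken by symbol from the 22118 symbols of the count matrices, where each is a single feature (Il10 ENSRNOG00000004647, Il10ra ENSRNOG00000016308, Il10rb ENSRNOG00000028638, Stat3 ENSRNOG00000019742, Socs3 ENSRNOG00000002946, Bcl3 ENSRNOG00000043416, Pim1 ENSRNOG00000000529 and Il4r ENSRNOG00000015441). The study asked about T cells resident in the liver, and profiled liver cells of Lewis rats by droplet single-cell RNA sequencing. In NEVLPcty a liver was perfused for 4 h at 37 °C with IL-10 and TGF-β in the perfusate, in NEVLP2 it was perfused for 4 h at 37 °C without them, in CS it was stored for 4 h at 4 °C, and the naive liver was neither stored nor perfused. Both perfusates were William's E medium with added pyruvate, glutamine, antibiotics, human albumin, insulin, hydrocortisone, heparin and papaverine, carrying packed Lewis red cells depleted of leukocytes. The reading of NEVLPcty follows the series' design text, the digit in NEVLP2 is not explained, and sex, age and the number of livers behind each library are not given in the sources used here.

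Each condition is a single library, so no test was possible, and a difference between libraries cannot be told apart from a difference between animals or preparations. IL-10 and TGF-β were given together, and the parts of the 2 cytokines cannot be told apart either. Levels are UMI counts (unique molecular identifiers, 1 per captured transcript) summed over the cells of a class and scaled by the UMI total of that class (CPM), and ratios are CPM ratios. All intervals are exact 95% intervals that cover counting error only. A ratio was formed where the libraries held at least 10 counts together and at least 20 cells each, and a value of 2-fold or more was counted as a difference of size.

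The NEVLPcty, NEVLP2, CS and naive libraries held 72271060, 65893218, 67431270 and 25609611 UMIs, and 10523, 9318, 9830 and 3197 cells were retained, with medians of 5204, 3604, 4511 and 3823 UMIs. Clustering gave 29 clusters, of which 6 stayed unnamed, and the others were named from marker genes as "-like" classes. NK or ILC1-like, T-like, B-like and plasmacytoid dendritic-like cells were 1 cluster each. Several classes sat in different clusters in different libraries. Kupffer-like cells were mostly cluster 8 in both perfused libraries and clusters 13 and 21 in CS, monocyte or macrophage-like cells clusters 18 and 25 after perfusion and 20 in CS and naive, endothelial-like cells cluster 0 after perfusion and clusters 2 and 10 in CS, and hepatocyte-like cells cluster 9 in NEVLPcty, 1 in NEVLP2 and 4 in CS and naive. Conventional dendritic-like cells were clusters 15 and 19 after perfusion and 19 and 24 in CS and naive. The stellate or fibroblast-like cluster held 996 and 339 cells in NEVLPcty and NEVLP2 and carried 9088 and 6305 CPM of endothelial markers, against 11033 and 9431 CPM in the endothelial-like class itself. Endothelial-like cells numbered 5024 in NEVLPcty, 120 in NEVLP2, 3837 in CS and 25 in naive. Most cells of NEVLP2 with endothelial markers were outside this class. Unnamed clusters 5 and 11, in which the endothelial list led without reaching the fold for a name, held 95 and 734 cells of NEVLPcty and 1935 and 275 of NEVLP2, and NEVLP2 clustered alone gave endothelial-like clusters of 1855 and 497 cells. Between any pair of libraries 11 to 35 cell barcodes were shared, at most 0.434% of a library.

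IL-10 is a cytokine of macrophages, B cells and regulatory T cells that restrains inflammatory gene expression. It binds IL-10RA, the ligand-specific chain found mainly on blood-derived cells, and then recruits IL-10RB, a widely expressed chain that also serves IL-22 and interferon lambda. The kinases JAK1 and TYK2 on these chains activate STAT3, which in macrophages raises SOCS3, BCL3 and the IL-4 receptor alpha chain and lowers cytokines, chemokines and costimulatory molecules. SOCS3 limits signalling by the IL-6 receptor family and leaves the IL-10 receptor largely unrestrained, and it is itself also raised by IL-6, oncostatin M, G-CSF and bacterial products.

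The promoters of Socs3 and Bcl3, the pair of target genes with the widest differences between libraries below, are shown because each holds a match to the NF-kB consensus. They are RefSeq sequences on build GRCr8, the 250 bases before the annotated start, read 5′ to 3′ on the strand of the gene, with the match in capitals.
Socs3, chr10:103694769-103695018, minus strand: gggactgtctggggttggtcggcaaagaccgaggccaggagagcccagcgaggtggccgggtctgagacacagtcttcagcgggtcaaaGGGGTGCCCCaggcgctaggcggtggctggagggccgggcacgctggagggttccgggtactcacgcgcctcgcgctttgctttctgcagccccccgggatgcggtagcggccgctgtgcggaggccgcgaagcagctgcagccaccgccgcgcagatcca
Bcl3, chr1:88613556-88613805, minus strand: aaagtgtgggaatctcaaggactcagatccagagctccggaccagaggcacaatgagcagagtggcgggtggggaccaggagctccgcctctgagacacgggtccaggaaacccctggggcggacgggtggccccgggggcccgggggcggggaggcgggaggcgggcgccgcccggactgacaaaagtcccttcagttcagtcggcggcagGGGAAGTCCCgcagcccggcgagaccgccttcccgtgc
The match begins 161 bases before the start in Socs3 and 38 bases before it in Bcl3. Promoters were found for 7 of the 8 genes, with none for Il10, and 2 of the 7 held the NF-kB consensus on either strand, as did 6.33% of all 33469 promoters of the same length. The letters TTCNNNGAA, the core of a STAT site, which reads the same on both strands, were in 0 of the 7 and in 7.67% of all promoters. A match is a description of the letters in this window and not a binding site. Absence of a match says nothing of sites outside these 250 bases.

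Il10 itself was sparse, with 48 counts in the NEVLPcty library, 74 in NEVLP2, 176 in CS and 26 in naive. Kupffer-like cells, the resident macrophages of the sinusoids, carried 25 of these counts in NEVLPcty, 45 in NEVLP2, 172 in CS and 19 in naive, which is 4.37, 4.36, 11.3 and 10.0 CPM. The level was thus nearly equal in the perfused livers and higher in both unperfused ones. NEVLPcty over NEVLP2 gave a Kupffer ratio of 1.00 (0.59 to 1.67), and NEVLP2 over CS gave 0.385 (0.271 to 0.537). Of all Kupffer-like genes 35.2% were at least 2-fold lower in NEVLP2 than in CS, with the median gene at -0.55 (log2). In B-like cells Il10 was at 20.5 CPM in NEVLPcty and 23.6 CPM in NEVLP2, from 7 and 15 counts, against 0 counts in CS and 1 count in naive. NEVLP2 was at least 14.7-fold higher than CS there, with CS set to a floor of 3 counts. These B-like counts came from 3 of 46 cells in NEVLPcty and 6 of 85 cells in NEVLP2, and 57.1% of those in NEVLPcty lay in 1 cell. In monocyte or macrophage-like cells there were 9 counts in NEVLPcty, 11 in NEVLP2, 4 in CS and 6 in naive, or 6.27, 1.54, 2.58 and 1.57 CPM. The NEVLPcty ratio of 4.07 (1.49 to 10.8) was the only one of the 67 ratios of the 8 genes between the perfused libraries that was at least 2-fold higher, and it was 1.77 with no doublets removed. NK or ILC1-like and plasmacytoid dendritic-like cells had no Il10 count in any library.

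Il10ra, the chain that decides which cells can bind IL-10, was almost confined to leukocytes in these counts. The leukocyte classes held 220 of its 221 counts in NEVLPcty, 335 of 344 in NEVLP2, 346 of 355 in CS and 189 of 189 in naive. Endothelial-like, stellate or fibroblast-like and hepatocyte-like cells together held 1, 5, 5 and 0 counts. A single Il10ra count lay in the 5024 endothelial-like cells of NEVLPcty. Hepatocyte-like cells had an Il10ra UMI in 0 of 1357 cells of NEVLPcty, which allows a share of up to 0.22%, in 0.09% in NEVLP2, in 0.23% in CS and in none in naive. The leukocyte level of Il10ra was close in all libraries, at 10.6 CPM in NEVLPcty, 9.36 in NEVLP2, 11.6 in CS and 10.9 in naive. In bulk sums of this kind the mix of leukocyte classes also sets the level, and that mix differed between libraries.

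Among leukocytes the NK or ILC1-like cells, innate lymphocytes of the sinusoids, had the highest Il10ra point value in NEVLPcty, NEVLP2 and CS. It was 26.5 CPM (19.7 to 34.8) in NEVLPcty, 22.4 (15.7 to 31.1) in NEVLP2, 23.4 (16.2 to 32.7) in CS and 12.6 (7.67 to 19.4) in naive. In NEVLPcty plasmacytoid dendritic-like cells followed at 13.7 CPM (6.82 to 24.5), conventional dendritic-like cells at 12.1 (10.0 to 14.5) and monocyte or macrophage-like cells at 11.1 (6.37 to 18.1), and the intervals of neighbours in this order overlapped. A break without overlap came before Kupffer-like cells at 4.02 CPM (2.55 to 6.04), which overlapped T-like cells at 2.21 CPM (0.267 to 7.97). B-like cells had 0 Il10ra counts in the 46 cells of NEVLPcty, 3 counts in NEVLP2, 16 in CS and 7 in naive. The order was different in CS, where monocyte or macrophage-like cells at 22.5 CPM (15.7 to 31.3) lay beside NK or ILC1-like cells and Kupffer-like cells followed at 12.5 CPM (10.8 to 14.4). Naive neighbours overlapped throughout.

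**Figure D1:**
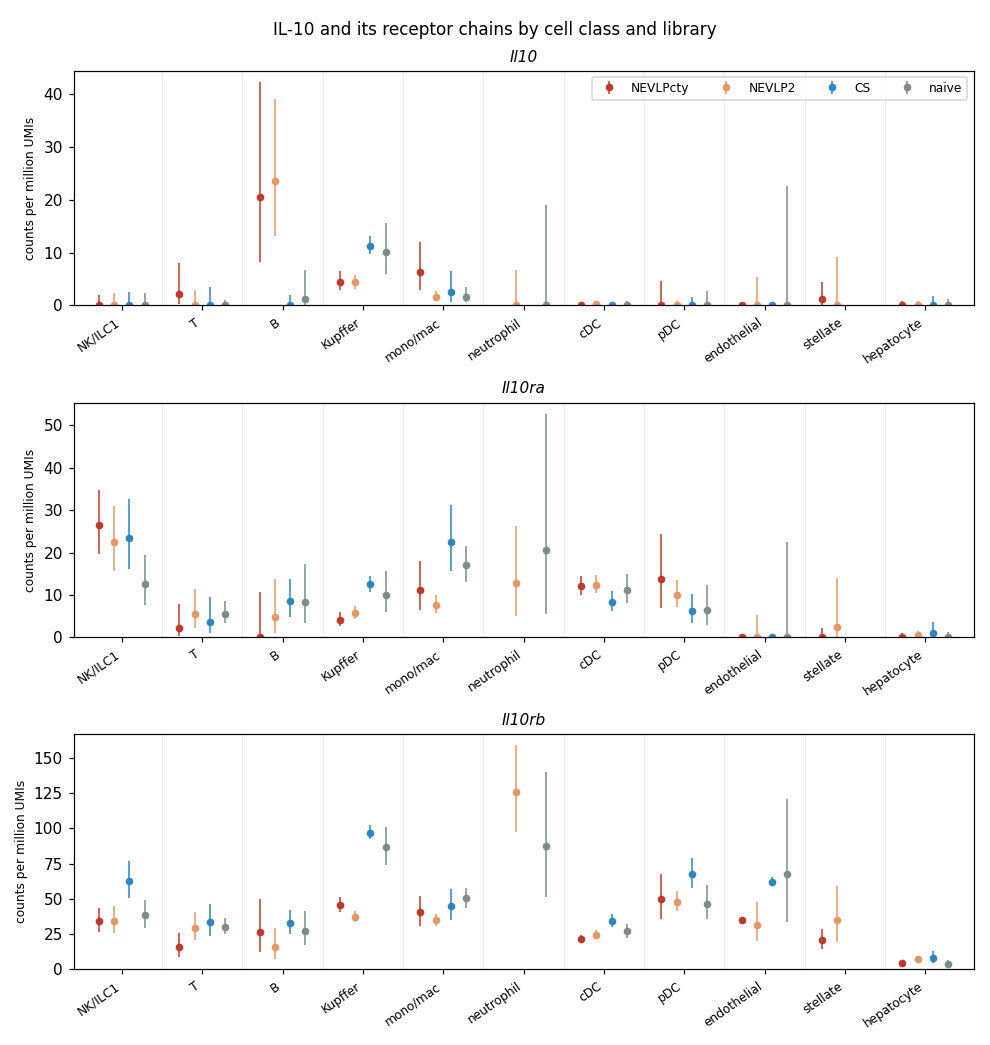
Levels of Il10, Il10ra and Il10rb in CPM (linear axes) for each cell class and library, with points for summed counts and bars for exact 95% Poisson intervals; classes under 20 cells in a library are left out. Il10ra is near 0 in endothelial-like and hepatocyte-like cells, whereas Il10rb is present in endothelial-like cells, at 34.6 CPM in NEVLPcty, 31.6 in NEVLP2 (120 cells), 62.1 in CS and 67.4 in naive (25 cells).

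No Il10ra ratio of NEVLPcty over NEVLP2 reached 2-fold in the 5 classes with enough counts, and every interval included 1. The ratios were 1.18 (0.755 to 1.86) in NK or ILC1-like cells, 1.38 (0.64 to 2.75) in plasmacytoid dendritic-like cells, 1.45 (0.774 to 2.56) in monocyte or macrophage-like cells, 0.978 (0.754 to 1.27) in conventional dendritic-like cells and 0.692 (0.409 to 1.14) in Kupffer-like cells. In these 5 classes the share of all genes at least 2-fold higher in NEVLPcty was 13.1, 8.9, 15.6, 16.1 and 11%, and the share at least 2-fold lower was 5.14, 6.99, 7.76, 5.81 and 6.98%. The monocyte or macrophage ratio was 0.744 to 0.801 with no doublets removed, with at most 10% mitochondrial UMIs and with at least 1000 UMIs a cell, so its direction depended on the choice of cells. Against CS the macrophage classes of NEVLP2 had less Il10ra. The ratio of NEVLP2 over CS was 0.465 (0.342 to 0.624) in Kupffer-like and 0.342 (0.22 to 0.538) in monocyte or macrophage-like cells, the 2 classes of 7 that were at least 2-fold lower. The share of all genes at least 2-fold lower was also high there, at 35.2% in Kupffer-like and 37.5% in monocyte or macrophage-like cells, and the median gene stood at -0.55 and -0.62 on the log2 scale, so a ratio this low was not rare in these classes. Conventional dendritic-like cells went the other way, at 1.47 (1.06 to 2.08), where the median gene stood at -0.65. CS over naive gave no 2-fold ratio in 7 classes, with 1.86 (1.04 to 3.41) in NK or ILC1-like cells.

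Read per cell, Il10ra transcripts were caught in few cells. An Il10ra UMI was found in 19.2% of conventional dendritic-like cells in NEVLPcty, 21.5% in NEVLP2, 13.4% in CS and 17.4% in naive, at median depths of 19315.5, 21539, 19245 and 22069 UMIs. In NK or ILC1-like cells the shares were 8.95, 7.86, 10.0 and 9.14% at the lower depths of 3216, 2263.5, 3680 and 8697 UMIs. Hepatocyte-like cells, with median depths of 1998, 1404, 1846.5 and 2224 UMIs, give the background of at most 0.23%. After each cell was thinned to 1000 UMIs, NK or ILC1-like shares were 2.50, 2.58, 4.17 and 1.69%, and conventional dendritic-like shares were 1.40, 1.5, 0.95 and 0%. At equal depth the NK or ILC1-like point value was above the dendritic one in every library, as it was in CPM. Both chains were seen in the same cell in 34 of 504 conventional dendritic-like cells (6.75%) in NEVLPcty, 39 of 470 (8.30%) in NEVLP2, 22 cells in CS and 21 in naive. Among Kupffer-like cells this held for 10 cells (2.15%), 34 (4.84%), 135 (13.0%) and 11 (6.63%). At this depth a cell with no UMI is not a cell without the receptor.

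Il10rb, the accessory chain, was broad. Endothelial-like, stellate or fibroblast-like and hepatocyte-like cells held 58.1% of its counts in NEVLPcty, 4.76% in NEVLP2, 38.8% in CS and 2.88% in naive, and the unnamed clusters held a further 7.62, 26.4, 2.98 and 0.524%. Kupffer-like cells carried 45.7 CPM in NEVLPcty, 37.1 in NEVLP2, 97.0 in CS and 86.9 in naive. Hepatocyte-like cells were lowest, at 4.0, 7.3, 7.7 and 3.5 CPM. The perfused livers were thus below the unperfused ones in Kupffer-like cells. The same held for the point values of endothelial-like cells, which rest on 25 cells in naive and 120 in NEVLP2. NEVLP2 over CS lay below 1 in 9 of 9 classes. It was at least 2-fold lower in 2 classes, Kupffer-like cells at 0.382 (0.341 to 0.428) and B-like cells at 0.483 (0.221 to 0.95). Of all genes, 35.2% in Kupffer-like and 17.9% in B-like cells were that much lower. The median Kupffer gene stood at -0.55 (log2), so a ratio this low was not rare there. Between the perfused livers 0 of 10 classes differed 2-fold. Kupffer-like cells gave 1.23 (1.05 to 1.44), which turned to 0.941 with no doublets removed and 0.905 after thinning, and T-like and hepatocyte-like cells gave 0.523 (0.261 to 0.99) and 0.553 (0.294 to 0.988). The hepatocyte value sets mainly cluster 9 of NEVLPcty against cluster 1 of NEVLP2, and within cluster 1 it was 2.30 (0.27 to 8.79). In CS over naive 1 class of 9 was at least 2-fold higher, hepatocyte-like cells at 2.18 (0.95 to 5.2), where 17.2% of all genes were.

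Stat3, the transcription factor activated by the receptor, was present in every class, and both perfused livers had more of it than CS in all 9 classes compared. NK or ILC1-like cells carried 797.8 CPM in NEVLPcty, 715.4 in NEVLP2, 288.7 in CS and 207.2 in naive. Endothelial-like cells carried 486.6, 525.4, 199.1 and 171.6 CPM, and hepatocyte-like cells 101.8, 111.5, 26.1 and 21.6 CPM. In each of these classes both perfused livers stood above both unperfused ones. NEVLP2 over CS was at least 2-fold higher in 9 of 9 classes, with ratios of 2.48 to 4.27. The background of genes at least 2-fold higher in that comparison was 8.43% in NK or ILC1-like, 9.46% in T-like, 10.4% in B-like, 9.6% in Kupffer-like, 9.41% in monocyte or macrophage-like, 9.61% in conventional dendritic-like, 10.7% in plasmacytoid dendritic-like, 11% in endothelial-like and 25.5% in hepatocyte-like cells. The median gene there stood at -0.21 (log2) in NK or ILC1-like, -0.34 in endothelial-like and 0.34 in hepatocyte-like cells and at -0.06 in T-like, B-like and plasmacytoid dendritic-like cells. CS over naive lay between 1.13 and 1.39 for Stat3 and was 2-fold in 0 of 9 classes.

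Between the perfused livers Stat3 was lower in NEVLPcty in 9 of 10 classes, never by 2-fold. The lowest ratios were 0.585 (0.49 to 0.696) in T-like, 0.629 (0.525 to 0.751) in plasmacytoid dendritic-like, 0.715 (0.668 to 0.764) in Kupffer-like and 0.789 (0.747 to 0.834) in conventional dendritic-like cells. In the other classes below 1 the interval included 1, but the class value can hide its clusters. Within monocyte or macrophage-like clusters 18 and 25 Stat3 was 0.835 (0.752 to 0.927) and 0.575 (0.409 to 0.787), and within hepatocyte-like cluster 1 it was higher in NEVLPcty, at 1.73 (1.09 to 2.61). NK or ILC1-like cells, the class with the highest Il10ra level in NEVLPcty, gave 1.12 (1.03 to 1.2), but this was 0.977 after scaling to the median gene and 0.901 after thinning. The median gene of NEVLPcty over NEVLP2 stood at 0.19 (log2) in NK or ILC1-like, 0.20 in monocyte or macrophage-like, 0.23 in conventional dendritic-like and 0.11 in stellate or fibroblast-like cells, -0.10 in B-like and between 0.01 and 0.09 in the other classes. The NEVLP2 library is used in both comparisons, so a high or low value in it moves them in opposite directions.

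Socs3, the feedback inhibitor, had the highest single ratio of NEVLP2 over CS among the 8 genes, in Kupffer-like cells. Kupffer-like cells carried 42.0 CPM in NEVLPcty, 83.8 in NEVLP2, 0.197 in CS and 2.11 in naive, from 240, 866, 3 and 4 counts. Conventional dendritic-like cells carried 28.3, 60.9, 2.75 and 2.66 CPM, and monocyte or macrophage-like cells 20.2, 60.9, 4.51 and 1.57 CPM. In these 3 myeloid classes NEVLP2 was highest, NEVLPcty intermediate, and CS and naive lowest, and the NEVLPcty and NEVLP2 intervals did not overlap. Plasmacytoid dendritic-like cells carried 3.73 CPM in NEVLPcty, 36.1 in NEVLP2, 0.823 in CS and 0 in naive. Endothelial-like cells carried 39.9 CPM in NEVLPcty, 83.3 in NEVLP2 and 21.5 in CS, with 0 counts in the 25 naive cells. Lymphocytes had little Socs3 in any library, with 5.19, 11.2, 4.12 and 2.51 CPM in NK or ILC1-like and 5.51, 11.2, 4.62 and 5.51 CPM in T-like cells. The highest value of all was in the neutrophil-like cells of NEVLP2, at 527.6 CPM (468.6 to 591.9) over 203 cells, against 10.3 CPM (1.25 to 37.2) in naive, while NEVLPcty and CS held 13 and 17 such cells and were not compared.

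Ratios of NEVLPcty over NEVLP2 for Socs3 lay below 1 in 9 of 9 classes, and 8 were at least 2-fold lower. Of these 8, only plasmacytoid dendritic-like cells stayed at least 2-fold lower under all alternatives, and the highest ratio in the others was 0.526 to 0.617. The further backgrounds for such a ratio were 7.55% of genes in T-like, 10.4% in B-like, 7.15% in endothelial-like, 12.8% in stellate or fibroblast-like and 9.04% in hepatocyte-like cells. The ratio was 0.332 (0.219 to 0.483) in monocyte or macrophage-like, 0.465 (0.402 to 0.537) in conventional dendritic-like, 0.479 (0.368 to 0.634) in endothelial-like and 0.480 (0.265 to 0.897) in stellate or fibroblast-like cells. Kupffer-like cells fell just short of 2-fold, at 0.501 (0.432 to 0.578), and the value within cluster 8 alone was the same. Plasmacytoid dendritic-like cells gave 0.103 (0.0211 to 0.308), resting on 3 counts in 62 cells of NEVLPcty. In NK or ILC1-like and T-like cells, at 0.463 (0.191 to 1.06) and 0.493 (0.139 to 1.45), the interval included 1. The hepatocyte-like value, also among the 8, sets mainly cluster 9 of NEVLPcty against cluster 1 of NEVLP2. Within cluster 1 the ratio was 0.601 (0.0151 to 3.44), from 1 count in NEVLPcty. Within cluster 9 it was 0.268 (0.0629 to 2.40), from 2 counts in NEVLP2, and both intervals included 1. With the unnamed clusters added the ratio was below 1 in 12 of 12 units, at 0.744 (0.509 to 1.05) in cluster 5, 0.673 (0.546 to 0.831) in cluster 11 and 0.216 (0.127 to 0.356) in cluster 23. Endothelial-like and stellate or fibroblast-like cells, with 1 and 0 Il10ra counts in NEVLPcty, were also lower in Socs3 in NEVLPcty. A link between Il10ra and the Socs3 ratios was not tested. The endothelial ratio compares 5024 cells with 120, and it was 0.564 with each library clustered alone.

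Against CS, NEVLP2 was at least 2-fold higher in 8 of 8 classes. Socs3 ratios were 425 (145 to 2060) in Kupffer-like, 43.8 (11.9 to 365) in plasmacytoid dendritic-like, 22.1 (13.7 to 38.2) in conventional dendritic-like, 13.5 (6.51 to 33.8) in monocyte or macrophage-like and 9.01 (2.99 to 44.5) in hepatocyte-like cells. They were smaller in endothelial-like, NK or ILC1-like and T-like cells, at 3.87 (2.90 to 5.09), 2.72 (1.03 to 8.37) and 2.42 (0.824 to 8.59). The Kupffer and plasmacytoid values rest on 3 and 2 counts in CS. In CS over naive 1 class of 5 was at least 2-fold higher, monocyte or macrophage-like cells at 2.87 (0.827 to 10.3), where 7.58% of all genes were.

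Neutrophil markers, like Socs3, were higher in NEVLP2 than in NEVLPcty in Kupffer-like, monocyte or macrophage-like and hepatocyte-like cells. They did not follow Socs3 over all libraries. In Kupffer-like and monocyte or macrophage-like cells the markers were lowest in NEVLPcty, where Socs3 was above CS and naive. The summed level of 7 of 7 neutrophil markers was 2.62, 164.5, 11.97 and 19.0 CPM in the Kupffer-like cells of NEVLPcty, NEVLP2, CS and naive, with 3 and 2 of them at 0 in NEVLPcty and NEVLP2. It was 16.0, 283.2, 68.2 and 162.6 CPM in monocyte or macrophage-like cells and 12.6, 204.2, 3.87 and 4.20 CPM in hepatocyte-like cells, against 14146 CPM in the neutrophil-like cells of NEVLP2. If every neutrophil marker count of NEVLP2 came with the Socs3 counts of a neutrophil-like cell, these would be 7.32% of the 866 Kupffer counts, 17.3% of the 435 monocyte or macrophage counts and 58.2% of the 90 hepatocyte counts. In conventional and plasmacytoid dendritic-like cells the same sum gives 1.60% and 0.511%. The sum takes markers and Socs3 in the proportion found in the 203 neutrophil-like cells of NEVLP2, and it is not a test. The part of neutrophil RNA in the Socs3 ratios was not tested.

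**Figure D2:**
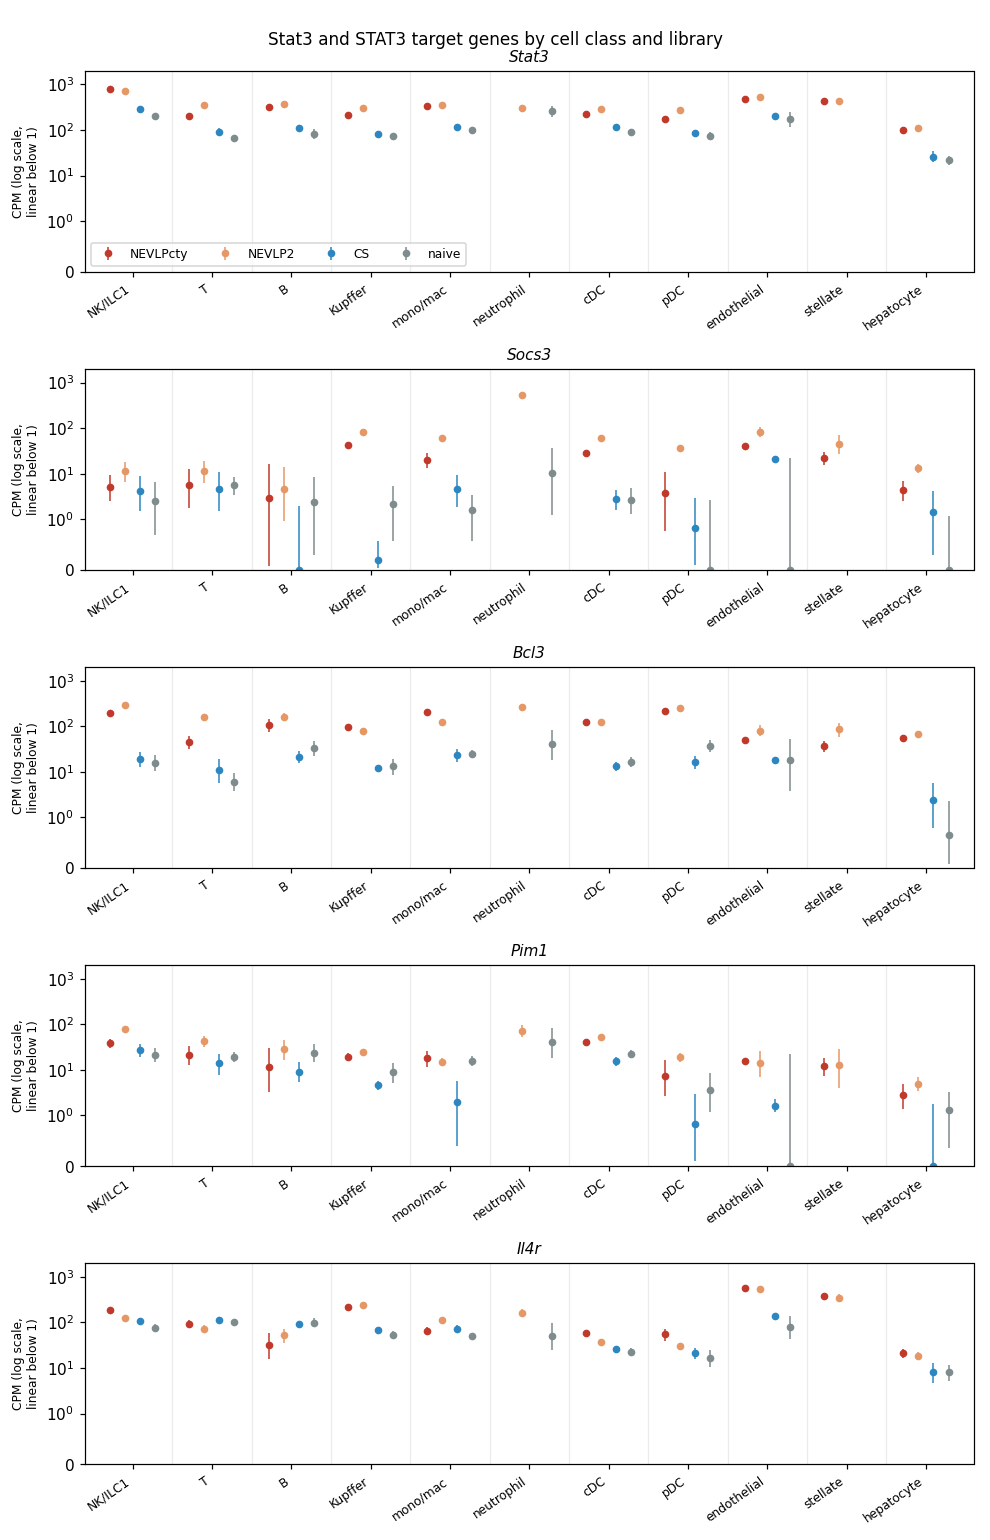
Levels of Stat3, Socs3, Bcl3, Pim1 and Il4r in CPM for each cell class and library, on log axes that are linear below 1, with exact 95% Poisson intervals; classes under 20 cells in a library are left out. Stat3 and Bcl3 stand higher in both perfused libraries than in CS in every class shown for these libraries, and Socs3 in Kupffer-like cells is 42.0 CPM in NEVLPcty, 83.8 in NEVLP2, 0.197 in CS and 2.11 in naive.

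Bcl3, a nuclear protein of the IkB family that IL-10 raises in macrophages, was also higher in NEVLP2 than in CS in all 9 classes compared, but the ratio between the perfused livers differed in direction by cell class. In monocyte or macrophage-like cells it was 208.3 CPM in NEVLPcty, 123.4 in NEVLP2, 23.2 in CS and 24.6 in naive. In Kupffer-like cells it was 94.4, 79.2, 12.2 and 13.2 CPM. T-like cells carried 44.1, 156.4, 11.1 and 6.09 CPM. So NEVLPcty was above NEVLP2 in both macrophage classes and below it in T-like cells. The ratios were 1.69 (1.48 to 1.93) in monocyte or macrophage-like, 1.19 (1.07 to 1.33) in Kupffer-like, 1.00 (0.924 to 1.08) in conventional dendritic-like, 0.668 (0.581 to 0.766) in NK or ILC1-like, 0.618 (0.474 to 0.822) in endothelial-like, 0.423 (0.273 to 0.665) in stellate or fibroblast-like and 0.282 (0.195 to 0.398) in T-like cells, and 2 of 10 classes were at least 2-fold lower. These 2 were stellate or fibroblast-like and T-like cells, where 12.8% and 7.55% of all genes were that much lower. The Kupffer ratio turned to between 0.862 and 0.956 under 4 other choices of cells or scaling, and the T-like ratio was 0.961 after thinning, while the monocyte or macrophage ratio stayed between 1.25 and 2.33. Within conventional dendritic-like cluster 19 Bcl3 was 0.635 (0.525 to 0.765). NEVLP2 over CS was at least 2-fold higher in 9 of 9 classes, from 4.52 (3.35 to 5.99) in endothelial-like to 28.3 (12 to 87.6) in hepatocyte-like cells. CS over naive was at least 2-fold lower in 1 of 8 classes, plasmacytoid dendritic-like cells at 0.444 (0.286 to 0.685), against 3.14% of their genes.

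Pim1, a serine/threonine kinase gene and a target of several STAT proteins, was measured in every class. NK or ILC1-like cells had 38.9 CPM in NEVLPcty, 78.5 in NEVLP2, 27.5 in CS and 21.3 in naive. Conventional dendritic-like cells had 40.3, 53.5, 15.4 and 22.5 CPM, and Kupffer-like cells 19.4, 24.9, 4.6 and 8.96 CPM. NEVLPcty lay between NEVLP2 and the unperfused livers in these 3 classes. It was at least 2-fold lower than NEVLP2 in 4 of 10 classes, NK or ILC1-like at 0.496 (0.367 to 0.665), T-like at 0.486 (0.272 to 0.833), plasmacytoid dendritic-like at 0.392 (0.14 to 0.893) and B-like at 0.414 (0.102 to 1.26). In these 4 classes 5.14, 7.55, 6.99 and 10.4% of all genes were that much lower. The macrophage and endothelial-like classes were nearer to 1, with 0.78 (0.619 to 0.978) in Kupffer-like, 1.2 (0.749 to 1.85) in monocyte or macrophage-like and 1.06 (0.574 to 2.23) in endothelial-like cells. NEVLP2 over CS was at least 2-fold higher in 9 of 9 classes. These ratios ran from 2.86 (1.99 to 4.18) in NK or ILC1-like cells to 23.1 (6.18 to 194) in plasmacytoid dendritic-like cells, with hepatocyte-like cells at least 3.41-fold higher. CS over naive was at least 2-fold lower in 2 of 6 classes, monocyte or macrophage-like cells at 0.123 (0.0247 to 0.377) and B-like cells at 0.381 (0.187 to 0.765). Of all genes, 5.42% and 4.43% were that much lower in these classes.

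Il4r, which encodes the IL-4 receptor alpha chain, had its highest levels in endothelial-like cells. Endothelial-like cells carried 582.2 CPM in NEVLPcty, 552.7 in NEVLP2, 138.3 in CS and 79.7 in naive, and Kupffer-like cells 219.0, 238.9, 67.2 and 53.7 CPM. Conventional dendritic-like cells carried 59.0, 38.0, 26.5 and 22.5 CPM, and NK or ILC1-like cells 190.0, 125.9, 105.2 and 77.2 CPM. NEVLPcty was the highest library in dendritic-like and NK or ILC1-like cells, unlike for Socs3. The ratio of NEVLPcty over NEVLP2 was 1.81 (1.26 to 2.58) in plasmacytoid dendritic-like, 1.55 (1.36 to 1.77) in conventional dendritic-like and 1.51 (1.27 to 1.80) in NK or ILC1-like cells, against 0.917 (0.856 to 0.982) in Kupffer-like cells, and 0 of 10 classes reached 2-fold. Monocyte or macrophage-like cells gave 0.578 (0.462 to 0.715), which turned to between 1.07 and 1.10 with no doublets removed, with at most 10% mitochondrial UMIs or with at least 1000 UMIs a cell. NEVLP2 over CS was at least 2-fold higher in 3 of 9 classes, Kupffer-like cells at 3.55 (3.30 to 3.83), endothelial-like cells at 4.00 (3.59 to 4.44) and hepatocyte-like cells at 2.26 (1.36 to 4.00). It was below 1 in T-like and B-like cells, at 0.65 (0.49 to 0.861) and 0.562 (0.375 to 0.819). CS over naive reached 2-fold in 0 of 9 classes.

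Over the 8 genes and the classes with enough counts, 14 of 67 ratios of NEVLPcty over NEVLP2 were at least 2-fold lower, of which 8 were Socs3, 4 Pim1 and 2 Bcl3. Among them the interval included 1 for Socs3 in NK or ILC1-like and T-like cells and for Pim1 in B-like cells. The share of all genes that much lower was 5.14% to 12.8% by class. No ratio of Il10ra, Il10rb, Stat3 or Il4r reached 2-fold in either direction.

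**Figure D3:**
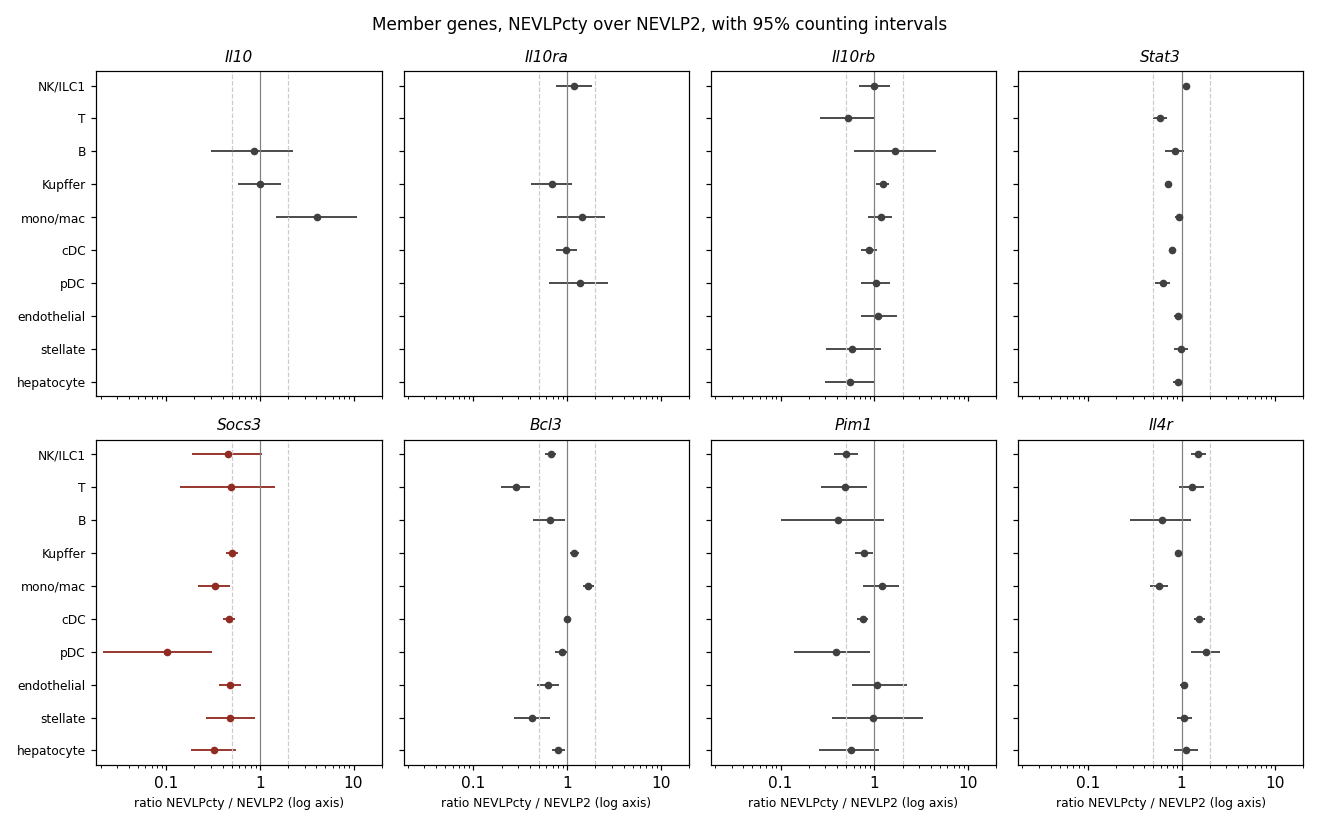
Ratios of CPM, NEVLPcty over NEVLP2, for the 8 genes in each cell class on a log axis, with exact 95% intervals; dashed lines mark 0.5 and 2. Socs3 lies below 1 in all 9 classes shown, between 0.103 and 0.501, whereas Il10ra lies between 0.692 and 1.45 and Il4r between 0.578 and 1.81.

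Cells that kept an Il10ra UMI after thinning to 10000 UMIs could be compared with the rest only among conventional dendritic-like cells. This depth was chosen after the depths were seen. The rest can include cells whose Il10ra UMI was lost in thinning, which would bring the 2 groups closer. In NEVLPcty 64 such cells stood against 393 without one, with 47 shallower cells left out, and in NEVLP2 54 against 380, with 36 left out. Socs3 in cells with an Il10ra UMI over cells without one had a ratio of 0.837 (0.481 to 1.38) in NEVLPcty and 1.02 (0.688 to 1.48) in NEVLP2, and Bcl3 had 1.13 (0.90 to 1.41) and 1.19 (0.923 to 1.5). Pim1 gave 1.54 (1.07 to 2.18) and 1.24 (0.83 to 1.81). Of the 5 target genes in the 2 perfused libraries, Pim1 in NEVLPcty was the only one whose interval excluded 1. In CS, with 23 cells against 248, Il4r gave 2.19 (1.11 to 4.02).

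Genes known to be repressed by IL-10 in macrophages were mostly lower in NEVLPcty than in NEVLP2. Of 17 such genes with enough counts in Kupffer-like cells, 10 were at least 2-fold lower and 0 higher, with a median of -1.09 (log2) against 0.09 over all genes. In monocyte or macrophage-like cells 7 of 16 were lower (median -0.87 against 0.20), and in conventional dendritic-like cells 7 of 16 were lower and 2 higher (median -0.96 against 0.23). The shares over all genes in Kupffer-like, monocyte or macrophage-like and conventional dendritic-like cells were 6.98, 7.76 and 5.81% lower and 11, 15.6 and 16.1% higher. The chemokine gene Ccl4 stood at 2622 CPM in NEVLPcty and 18717 CPM in NEVLP2 Kupffer-like cells, a ratio of 0.140, and Ccl3 had 0.300, Il1b 0.471 and Ccl2 0.452 there. In monocyte or macrophage-like cells Ccl4 had 0.047, Ccl2, the main monocyte attractant, 0.052, Nos2, the inducible nitric oxide synthase, 0.198 and Cxcl2 0.270. Conventional dendritic-like cells had Ccl4 at 0.093, Ccl3 at 0.154 and the costimulatory receptor Cd40 at 0.348, but Il1b at 2.28.

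The same list, whose link to Il10ra was not tested, was lower in classes with little or no Il10ra. Of its members 8 of 16 were at least 2-fold lower in endothelial-like cells (median -1.01 against 0.06), 11 of 13 in stellate or fibroblast-like cells (-2.26 against 0.11) and 14 of 17 in hepatocyte-like cells (-1.59 against 0.06). NK or ILC1-like cells, with the most Il10ra, had 4 of 13 lower (-0.03 against 0.19), T-like cells 5 of 15 (-0.59 against 0.01), B-like cells 6 of 12 (-0.92 against -0.10) and plasmacytoid dendritic-like cells 8 of 14 (-1.17 against 0.01). The share of all genes that much lower was 7.15% in endothelial-like, 12.8% in stellate or fibroblast-like and 9.04% in hepatocyte-like cells. It was 5.14% in NK or ILC1-like, 7.55% in T-like, 10.4% in B-like and 6.99% in plasmacytoid dendritic-like cells. Cxcl10, a chemokine induced by interferons, was at least 2-fold lower in 10 of 10 classes, at 0.0246 to 0.391, Ccl4 in 8 and Ccl3 in 8 of 10. Kupffer markers moved with the list in these classes, and 7 of 7 summed to 257.0 CPM in NEVLPcty and 1039 CPM in NEVLP2 in stellate or fibroblast-like, 86.0 and 493.5 CPM in hepatocyte-like and 152.2 and 219.7 CPM in endothelial-like cells, with none at 0. Their part in the list's ratios was not tested. In NEVLP2 over CS, 15 of 17 members were at least 2-fold higher in Kupffer-like cells (median 3.83 against -0.55) and 14 of 16 in conventional dendritic-like cells (2.68 against -0.65), so NEVLP2 was the high library for this list as it was for Socs3. Of all genes, 9.6% in Kupffer-like and 9.61% in conventional dendritic-like cells were that much higher.

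Genes known to be induced by IL-10 in macrophages did not stand higher as a list in the 3 myeloid classes. More of them were lower than higher there. In Kupffer-like cells 2 of 21 were at least 2-fold higher and 3 lower (median 0.03 against 0.09). The haemoglobin scavenger receptor gene Cd163 had a ratio of 0.434, Tnfrsf1b 0.402 and Tnip3 0.265, while the decoy receptor gene Il1r2 had 6.60. In monocyte or macrophage-like cells 2 of 21 were higher and 9 lower (-0.45 against 0.20), with Il1rn, the IL-1 receptor antagonist, at 0.360 and Fcgr2b at 0.309. In conventional dendritic-like cells 2 of 22 were higher and 6 lower (-0.17 against 0.23), with Il1rn at 0.371 and Il1r2 at 2.65. The shares over all genes in Kupffer-like, monocyte or macrophage-like and conventional dendritic-like cells were 11, 15.6 and 16.1% higher and 6.98, 7.76 and 5.81% lower. Against 13.1% of all genes higher and 5.14% lower, NK or ILC1-like cells had 4 of 16 higher and 3 lower. Against 8.9% and 6.99%, plasmacytoid dendritic-like cells had 5 of 17 higher and 4 lower. Those of NK or ILC1-like cells include the macrophage receptor genes Mrc1 at 5.75 and Msr1 at 2.46, and in that class 8 endothelial markers summed to 447.9 CPM in NEVLPcty and 109.7 CPM in NEVLP2, with 1 and 2 of them at 0, and 7 Kupffer markers to 82.0 and 251.1 CPM, with none at 0. Their part in these ratios was not tested.

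**Figure D4:**
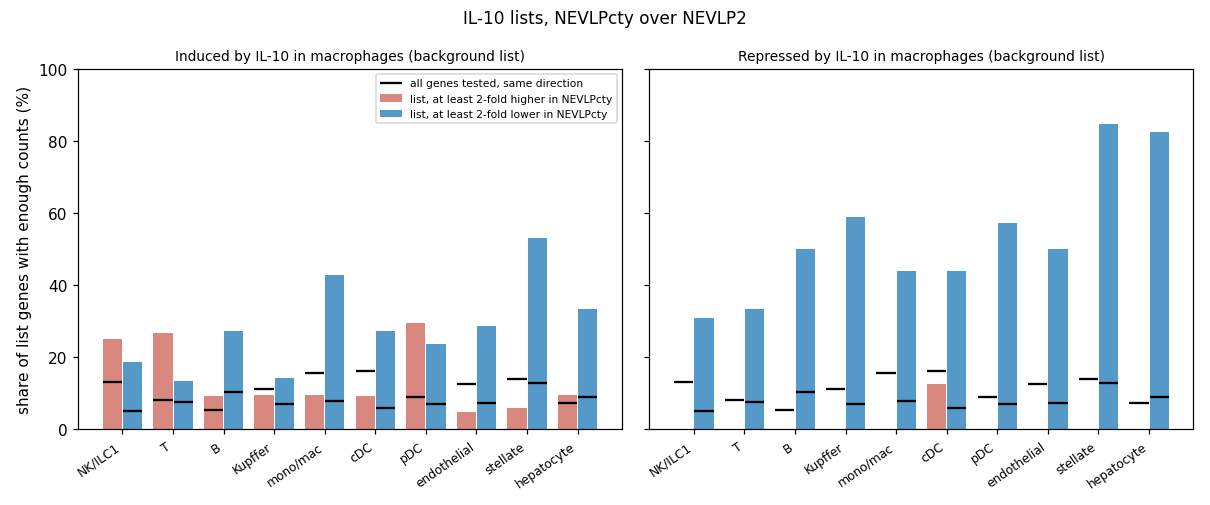
Share of listed genes that were at least 2-fold higher (red) or lower (blue) in NEVLPcty over NEVLP2, by cell class, with black lines for the share over all genes tested. The list repressed by IL-10 has 10 of 17 genes lower in Kupffer-like and 14 of 17 in hepatocyte-like cells, against 6.98% and 9.04% of all genes.

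Within the list of signalling genes (kinases, transducers, phosphatases and feedback inhibitors), other feedback genes went the way of Socs3 in myeloid cells. In conventional dendritic-like cells 3 of 9 were at least 2-fold lower and 0 higher, Socs1 at 0.349 (0.326 to 0.373), Cish at 0.263 (0.236 to 0.293) and the phosphatase gene Ptpn2 at 0.333 (0.305 to 0.363). In Kupffer-like cells 3 of 9 were lower, Socs1 at 0.333, Cish at 0.322 and Stat5a at 0.340, and in monocyte or macrophage-like cells 2 of 9, Cish at 0.064 and Socs1 at 0.152. In NK or ILC1-like cells 2 of 9 were higher, Cish at 2.61 (1.71 to 4.08) and the phosphatase gene Ptpn6 at 3.39 (2.82 to 4.10). Cish therefore differed in opposite directions in NK or ILC1-like and myeloid classes. Of all genes, 5.81% in conventional dendritic-like, 6.98% in Kupffer-like and 7.76% in monocyte or macrophage-like cells were at least 2-fold lower. In NK or ILC1-like cells 13.1% were that much higher.

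Other ligands and receptors that activate STAT3 differed between the perfused livers more widely than the IL-10 receptor did. Il6 in Kupffer-like cells had 17 counts in NEVLPcty and 1304 in NEVLP2, a ratio of 0.024 (0.0137 to 0.0379). Osm, which encodes oncostatin M, had 107 and 2248 counts in monocyte or macrophage-like cells, a ratio of 0.237 (0.193 to 0.288). Il6 in Kupffer-like cells and Osm in monocyte or macrophage-like cells were thus lower in NEVLPcty, and Socs3 was lower in both classes. A link between these ligands and Socs3 was not tested. Some receptor genes for other STAT3 cytokines were higher, with Il6r at 2.24 (1.76 to 2.86) and Il21r at 6.45 (4.40 to 9.67) in Kupffer-like cells and Il6r at 2.78 (2.20 to 3.52) in conventional dendritic-like cells. Among classes with enough counts, Il6r was at least 2-fold higher in 4 of 7 and lower in 0, and Il21r higher in 3 of 8 and lower in 1. Osmr, the oncostatin M receptor gene, was at least 2-fold lower in 4 of 4, at 0.164 to 0.485. Over the list 3 of 10 genes were at least 2-fold higher and 3 lower in Kupffer-like cells, 2 and 3 of 6 in monocyte or macrophage-like cells, and 3 and 2 of 10 in conventional dendritic-like cells. Of all genes in these classes, 11, 15.6 and 16.1% were that much higher and 6.98, 7.76 and 5.81% lower. Csf3r, the G-CSF receptor gene and one of the neutrophil markers, had 0.046 and 0.145 in Kupffer-like and monocyte or macrophage-like cells. Of the IL-10 family, Il22 had 0 counts in NEVLPcty and 39 in NEVLP2 NK or ILC1-like cells, and in all 2 of the 9 family genes had enough counts in that class, both lower. In conventional dendritic-like cells Il22ra2, a soluble receptor for IL-22, was higher at 5.94 (2.27 to 19.7).

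Other STAT3 targets were at least 2-fold lower in 2 of 13 cases in Kupffer-like cells (the leucine zipper factor genes Batf at 0.288 and Maff at 0.491) with 0 higher (median 0.01 against 0.09). In monocyte or macrophage-like cells 3 of 13 were lower and 1 higher (Bcl6 at 6.18). In conventional dendritic-like cells 3 of 13 were lower and 2 higher (among them Cebpb at 3.17). Of all genes in these 3 classes, 6.98, 7.76 and 5.81% were that much lower and 11, 15.6 and 16.1% higher. The listed genes that were higher did not exceed that share in any of the 3. In T-like cells 4 of 12 were lower and 0 higher, with Myc at 0.211 and Icam1 at 0.273, against 7.55% of all genes lower. Of the acute phase genes, which STAT3 raises in hepatocytes after IL-6, 1 of 10 was lower in hepatocyte-like cells, the fibrinogen chain Fga at 0.478, with a list median of -0.74 against 0.06. That count was near the 9.04% of all genes lower in this class. Of the partners of the IL-4 receptor, 2 of 4 were higher in NK or ILC1-like cells, against 13.1% of all genes. These were Il4 at 4.86 (3.51 to 6.89) and Irs2 at 3.76 (2.59 to 5.59), while Irs2 was lower in Kupffer-like cells at 0.322.

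The remaining lists cover TGF-β, NF-kB and glucocorticoid response. TGF-β feedback genes were at least 2-fold higher in 2 of 6 cases in Kupffer-like, 3 of 6 in NK or ILC1-like and 3 of 6 in T-like cells, where 11, 13.1 and 8.15% of all genes were. Pmepa1, an inhibitor of TGF-β signalling, had ratios of 10.4 (8.36 to 13.0), 8.34 (6.49 to 10.9) and 4.30 (3.38 to 5.52) in these classes, and Smad7 had 3.73, 2.93 and 3.14. Pmepa1 and Smad7 were each at least 2-fold higher in 6 of 10 classes and lower in 0. In endothelial-like cells 0 of 7 genes of that list reached 2-fold, and in stellate or fibroblast-like cells 3 of 7 were lower, against 12.8% of all genes. NF-kB feedback genes were lower in 5 of 7 cases in T-like cells, with Nfkbia at 0.424 (0.384 to 0.469) and Birc3 at 0.202 (0.147 to 0.271), in 1 of 7 in Kupffer-like cells, Tnfaip3 at 0.401, and in 0 of 7 in monocyte or macrophage-like cells. Of all genes in these 3 classes 7.55, 6.98 and 7.76% were that much lower. Of the glucocorticoid response genes 3 of 6 were higher in NK or ILC1-like cells, against 13.1% of all genes, with Tsc22d3 at 2.27 (1.84 to 2.82), and hydrocortisone was in both perfusates.

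Across 55 units of class and library, the genes most like Il10ra by Pearson correlation of log2(CPM + 1), among 5726 genes, were Cyth4 (0.913), Myo1f (0.905), Arhgap9 (0.903), Ccdc88b (0.900) and Pik3r5 (0.898). For Socs3, among 5725 genes, they were Icam1 (0.821), Txnrd1 (0.814), Nfkbia (0.806), Tnfaip3 (0.802) and Zc3h12a (0.798). Socs3 had a correlation of 0.70 with Bcl3, 0.60 with Il4r, 0.57 with Stat3, 0.56 with Pim1 and -0.07 with Il10ra. Icam1, an adhesion molecule gene, is also on the list of other STAT3 targets, and Nfkbia and Tnfaip3 encode inhibitors of NF-kB. These are descriptions over units that share 4 libraries, and the units of one library share its preparation.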

How the data were processed

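The deposited matrices hold whole-number UMI counts per gene and barcode for 4 libraries of Lewis rat liver. They were made with Cell Ranger, version 2.1.1 per the submitters' processing notes and 6.0.0 per the file headers, with a build not given in the sources used here. Features sharing a symbol were summed (22250 features, 22118 symbols). Cells had to show 200 genes or more and 500 UMIs or more, and those over 20% mitochondrial UMIs were dropped. Doublets were removed by rank of the Scrublet score, 0.8% per 1000 barcodes, since the threshold of the tool itself called 0 in NEVLPcty, which took 1093, 868, 968 and 103 barcodes from NEVLPcty, NEVLP2, CS and naive. Cells of all libraries were clustered together (Leiden, resolution 1, seed 1, 2000 variable genes, 30 components, 15 neighbours, no integration) with scanpy 1.11.5 in Python 3.11.15 (numpy 2.4.6, scipy 1.17.1, leidenalg 0.10.2), and clusters were named from 17 marker lists, which may differ from the names of the study. The markers Trac, Cd79a, Timd4, Ccr2, Mcpt8 and Pecam1 were not used here.

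Raw counts were summed by class and library. Levels have exact Poisson intervals, ratios exact conditional binomial intervals and shares exact binomial intervals, all at 95%, and a library at 0 was set to 3 counts. No p-value was computed, since each group is 1 library. The ratio calculation was tested on simulated data. The 8 genes and the 11 gene lists were chosen with earlier results of these data known. From the lists, genes at least 2-fold different with an interval excluding 1 are named, at most 4 per list and class, by total counts. Likeness was ranked among genes with a mean of at least 20 CPM. Alternatives changed the cell filters, doublets, class definition, scaling, count minimum and depth.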

Additional observations from a re-analysis of the deposited data

Results flagged for a closer look

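For 4 genes the ratio of NEVLPcty over NEVLP2 had intervals on opposite sides of 1 in different cell classes. None of these differences between classes was tested, because each condition is 1 library, and the pairs were chosen as the highest and lowest ratio of each gene among those whose interval excluded 1. Bcl3 was 1.69 in monocyte or macrophage-like cells and 0.282 in T-like cells. Il4r was 1.81 in plasmacytoid dendritic-like cells and 0.578 in monocyte or macrophage-like cells. Stat3 was 1.12 in NK or ILC1-like cells and 0.585 in T-like cells, and Il10rb was 1.23 in Kupffer-like cells and 0.523 in T-like cells. In each pair the value on one side of 1 depended on the processing. Bcl3 in T-like cells was 0.961 after thinning to 1000 UMIs, and Il4r in monocyte or macrophage-like cells was 1.07 to 1.10 with no doublets removed, at a maximum of 10% mitochondrial UMIs or at a minimum of 1000 UMIs. Stat3 in NK or ILC1-like cells was 0.977 after scaling to the median gene and 0.901 after thinning, and Il10rb in Kupffer-like cells was 0.941 with no doublets removed and 0.905 after thinning.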

How the results depend on the processing

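No paired analysis was possible because each group holds 1 library. Of 718 ratios of NEVLPcty over NEVLP2 recomputed under the alternatives, 631 kept their direction and 103 moved beyond the main interval. For Socs3 all 96 recomputed ratios lay below 1. The 2-fold call was lost under some alternative in 7 of the 8 classes, with highest ratios of 0.617 in NK or ILC1-like, 0.526 in T-like, 0.592 in endothelial-like, 0.548 in stellate or fibroblast-like and 0.601 in hepatocyte-like cells besides those below. In Kupffer-like cells Socs3 was 0.422 with no doublets removed. In monocyte or macrophage-like cells it was 0.511 with no doublets removed, 0.536 at a maximum of 10% mitochondrial UMIs, 0.538 at a minimum of 1000 UMIs, 0.492 with cells assigned by their own markers, 0.143 after thinning to 1000 UMIs and 0.514 within cluster 25. In conventional dendritic-like cells it was 0.189 by own markers, 0.397 after scaling to the median gene, 0.590 after thinning and 0.179 within cluster 19. The number of ratios at least 2-fold higher was 2 with the Scrublet threshold, 2 at a minimum of 1000 UMIs and 0 after thinning, and that of ratios at least 2-fold lower was 9 of 54 after thinning, against 14 of 67. In NK or ILC1-like cells the share of all genes at least 2-fold lower was 3.3% with a minimum of 30 counts and 7.81% with 3 counts, against 5.14%. The cause was not tested. Depth limits Il10 and Il10ra most, since a missing UMI does not show that a cell lacks the transcript.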
